A study of Mus musculus with 6 samples.

Results

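The TRIM (tripartite motif) genes were followed in HCC3-4, a line of mouse liver tumour cells that was established from mice carrying a MYC transgene. Members were all rows of the deposited expression table whose symbol is Trim followed by a number, with a trailing letter allowed, and 37 of the 11866 listed genes met this rule. GENCODE M21 holds 68 such symbols in the mouse genome. The other 31 are not among the listed genes, and the filter that left the listed genes is not given in the sources used here. KD cells carry a stably introduced hairpin against Sf3b3 and PLKO cells carry the pLKO.1-TRC negative control, with 3 libraries in each group and the same line, medium and poly(A) capture in both. No label says that libraries stem from separate cultures, so the p-values below cover library-to-library spread only and this may be technical. Without a further hairpin or a rescue, loss of Sf3b3 and anything else this hairpin does cannot be told apart. Trim69 had been picked for its KD against PLKO difference before the values below were computed, so its difference is described without a test.

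TRIM proteins share an N-terminal block of a RING finger, B-boxes and a coiled coil. The RING makes most of them ubiquitin ligases, which take ubiquitin from a conjugating enzyme and pass it to a bound protein, and the coiled coil pairs them into dimers. The part after the coiled coil picks the partner and sorts the family into classes, of which the SPRY class is the largest. Many SPRY members take part in the defence against viruses and are switched on by interferon, the PHD and bromodomain class works in chromatin, and the COS class binds microtubules.

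Sf3b3, the targeted splicing factor gene, had 10.3, 9.56 and 13.9 FPKM (fragments per kilobase of gene, scaled to library size) in KD 1, 2 and 3, against 22.6, 28.7 and 29.2 FPKM in PLKO 1, 2 and 3. The groups did not overlap, with a log2 fold change of -1.26 (SE 0.23, limma adjusted p = 0.037). The test was limma, which fits each gene by a linear model and pools the variance across genes, with p-values adjusted over all 10770 tested genes. Its alternatives were voom, which fits the whole reads recovered from the deposited values, and limma with the library number as a block. KD 3 kept the most, 51.8% of the PLKO mean, against 38.4% and 35.6% in KD 1 and 2. Reads on listed genes came to between 15140441 and 17566101 per library, and Trim genes held between 33581 and 46097 of them. Markers of the labelled tissue were largely missing: 0 of 11 hepatocyte genes were listed, Alb, Ttr and Hnf4a among those absent, and Afp was the 1 listed gene of 5 fetal liver and tumour genes. Afp had 1.975, 1.42 and 0.814 FPKM in KD, against 0.396, 0.302 and 0.467 FPKM in PLKO, and it was not tested. Of 9 leukocyte genes Cd68 and Cd79a were listed, while Ptprc, Lyz2 and Csf1r were not. Their summed level was 46.9 to 98.9 FPKM in KD and 10.1 to 42.2 FPKM in PLKO, and Cd68 made up most of it. Both were higher in every KD library, as were 13.4% of all tested genes. Cd68 had a log2 fold change of 1.76 (SE 0.50, limma adjusted p = 0.075). Cd79a had 3.77 (SE 0.80, limma adjusted p = 0.047), on 108, 87 and 62 reads in KD and 4, 0 and 20 in PLKO. An adjusted p under 0.05 was reached by 2.92% of all tested genes. Of 8 stromal genes 6 were listed, at a sum of 53.1 to 76.6 FPKM in KD and 102.9 to 157.6 FPKM in PLKO, and 0 of 5 endothelial genes were. Col1a1, Col1a2, Col3a1 and Pdgfrb were lower in every KD library, as were 18.8% of all tested genes. Pdgfra (log2 fold change 0.31, SE 0.31) and Des had overlapping groups. The keratins Krt8 and Krt18 of epithelial cells and 3 of 5 biliary genes (Krt19, Sox9 and Spp1) were listed, with sums that overlapped between the groups. Among these only Krt18 had groups apart, with 8.41 to 9.6 FPKM in KD and 5.27 to 6.6 FPKM in PLKO. The leukocyte and stromal sums separate the groups, and their part in the Trim results was not tested. In such bulk RNA, fewer cells of a kind and less RNA per cell cannot be told apart.

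The sequence before the start of Trim69 is shown with those of 3 other Trim genes, because the differences below are differences in transcript level and these stretches are where transcription begins. Trim56 and Trim12c are members that passed the test, and Trim30a is a neighbour of Trim12c in the same gene cluster that did not. Each stretch comes from RefSeq (GRCm38.p6), reads 5′ to 3′ on the strand of the gene, begins 250 bases before the start and stops before the first annotated exon base of GENCODE M21. Capitals mark matches to 7 motifs searched on both strands: the interferon response core (GAAA, 2 bases of any kind, then GAAA), the STAT site TTCNNNGAA, the AP-1 site TGANTCA, the cyclic AMP site TGACGTCA, the E-box CACGTG, the CCAAT box CCAAT and the TATA box TATAAA. RefSeq windows were found for 28 of the 37 members.
Trim69 (chr2:122160458-122160699, plus strand): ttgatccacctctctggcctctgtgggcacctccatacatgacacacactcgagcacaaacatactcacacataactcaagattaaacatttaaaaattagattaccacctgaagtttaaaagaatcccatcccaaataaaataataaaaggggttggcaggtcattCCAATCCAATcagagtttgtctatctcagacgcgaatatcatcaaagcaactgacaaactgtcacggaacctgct
Trim12c (chr7:104353363-104353599, minus strand): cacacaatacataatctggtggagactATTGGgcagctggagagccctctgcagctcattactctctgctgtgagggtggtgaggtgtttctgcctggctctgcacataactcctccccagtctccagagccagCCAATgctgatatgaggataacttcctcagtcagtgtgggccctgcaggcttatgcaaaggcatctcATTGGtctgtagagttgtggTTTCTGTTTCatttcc
Trim30a (chr7:104465194-104465443, minus strand): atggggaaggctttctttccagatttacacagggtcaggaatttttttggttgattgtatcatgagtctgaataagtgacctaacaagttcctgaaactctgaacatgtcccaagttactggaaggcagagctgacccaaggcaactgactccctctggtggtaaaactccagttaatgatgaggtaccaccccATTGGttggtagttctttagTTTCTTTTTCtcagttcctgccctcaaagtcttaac
Trim56 (chr5:137116210-137116457, minus strand): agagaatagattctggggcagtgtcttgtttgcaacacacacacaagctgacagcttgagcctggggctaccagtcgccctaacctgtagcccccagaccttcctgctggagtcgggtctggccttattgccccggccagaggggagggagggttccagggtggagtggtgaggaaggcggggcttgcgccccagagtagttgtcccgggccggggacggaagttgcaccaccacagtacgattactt
Trim69 held CCAAT boxes 83 and 78 bases before its start, side by side, and no match to the other 6 motifs. Trim12c and Trim30a each held an interferon response core close to the start, at 29 and 36 bases before it, and Trim56 held no match at all. The interferon core stood in 3 of 41 windows of Trim genes and in 2.98% of all 32851 windows, and the CCAAT box in 16 of 41 and in 33.8%. The STAT site stood in 2 of 41 and in 7.02% of all windows, the AP-1 site in 2 and 6.75%, the cyclic AMP site in 1 and 1.55%, the E-box in 3 and 6.02% and the TATA box in 3 and 12.4%. No motif of the 7 contains another. The RefSeq table gives Trim69 a further start inside the gene, whose window held none of the motifs, and the same holds for a further start of Trim30a. A match describes letters only.

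Trim69 encodes a RING ligase of the SPRY class that was first described in mouse testis and whose human counterpart binds microtubules. It had 7.84, 6.82 and 2.39 FPKM in KD 1, 2 and 3, against 0.473, 0.317 and 0.365 FPKM in PLKO 1, 2 and 3. All KD libraries stood above all PLKO libraries, and KD 3 was the lowest of the KD group. These levels rest on 227, 202 and 77 reads in KD and on 14, 8 and 9 reads in PLKO. Per scaled library the KD reads were 16.9 times the PLKO reads, with an exact 95% binomial interval of 11.8 to 25.2 that covers counting error only. The log2 fold change was 3.73 (SE 0.50), the 7th highest among the 10770 tested genes, whereas the other 32 tested Trim genes ran from -1.34 to 3.35 with a median of 0.18. Within the family Trim69 ranked 16th, 17th and 23rd of 37 by FPKM in the KD libraries and 34th, 36th and 36th in the PLKO libraries. Its share of the summed Trim level was 1.34%, 1.17% and 0.489% in KD 1, 2 and 3 and 0.0842%, 0.0641% and 0.0817% in PLKO 1, 2 and 3. The gene lies on chromosome 2 from 122160700 to 122179027 on the plus strand (GRCm38) and has 1888 exonic bases. It sits within the span of Patl2 on the opposite strand but shares 0 exonic bases with it, and Patl2 is not among the listed genes. Trim69 passed the filter on low values through the KD libraries alone, as did Trim72 and Trim6.

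**Figure D1:**
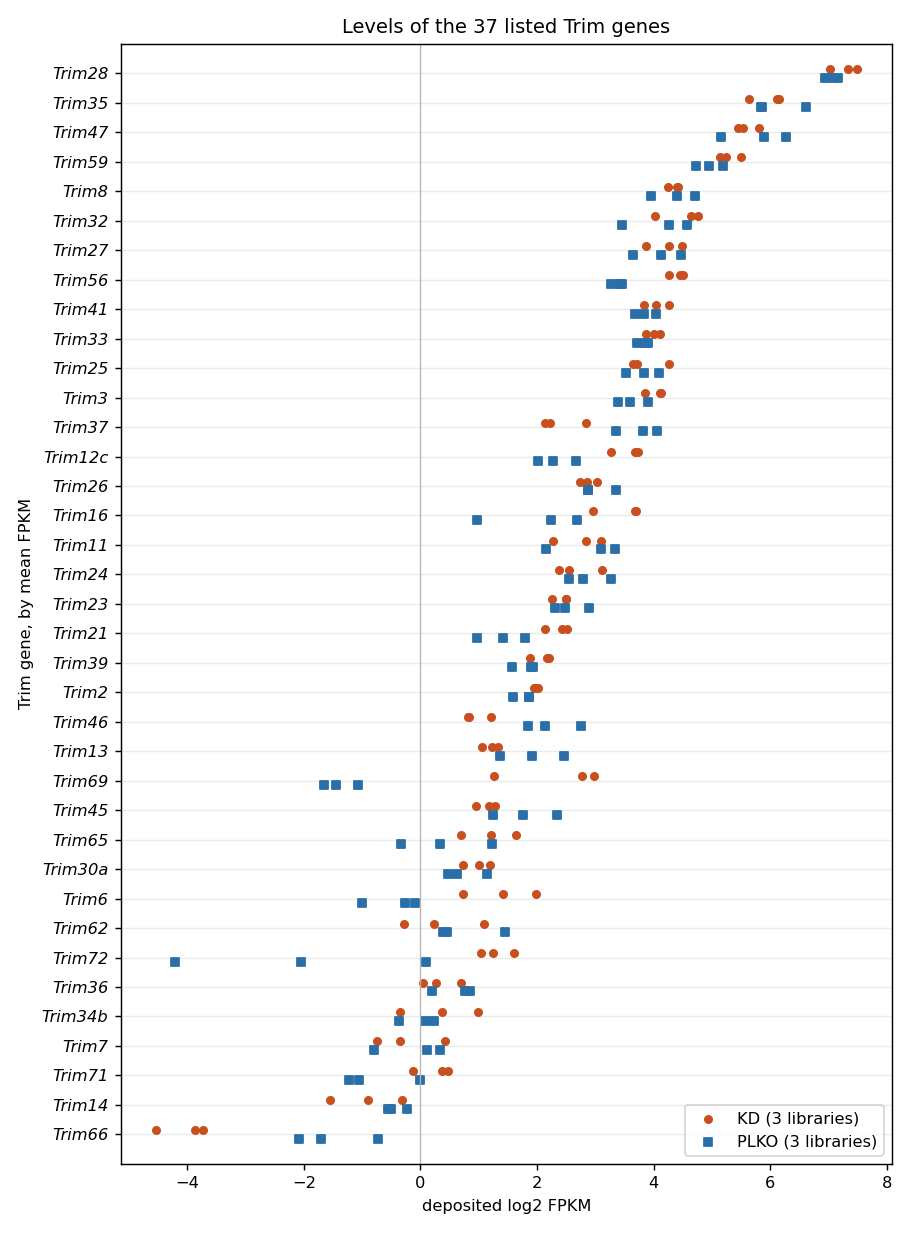
Deposited log2 FPKM (x axis) of the 37 listed Trim genes, ordered by mean FPKM from the highest at the top, with circles for the 3 KD libraries and squares for the 3 PLKO libraries. Trim28 tops the family, and Trim69 has the widest gap between its groups, with all KD values above 0 and all PLKO values below 0 on the log2 scale.

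Within 250 kb of Trim69, 21 genes are annotated, 8 are listed and 7 could be tested, with log2 fold changes between -1.41 and 0.58. B2m, the light chain of MHC class I that ends 7.62 kb before Trim69, had 373, 452 and 445 FPKM in KD and 423, 444 and 562 FPKM in PLKO, with a log2 fold change of -0.16 (SE 0.20, limma adjusted p = 0.63). Sord, the sorbitol dehydrogenase 55.7 kb beyond Trim69, had a log2 fold change of -0.08 (SE 0.19). Eif3j1, a translation initiation factor subunit, and Casc4 had lower values in every KD library, with log2 fold changes of -1.41 (SE 0.38, limma adjusted p = 0.068) and -0.92 (SE 0.21, adjusted p = 0.051). Ctdspl2 was higher in every KD library, at 0.58 (SE 0.21, limma adjusted p = 0.12), as was Duox1, which was not tested. Of all tested genes 18.8% were lower and 13.4% higher in every KD library. None of the 7 was called by limma or by voom on recovered reads, 3 had an unadjusted p under 0.05 (27.6% of all tested genes did), and Eif3j1 and Casc4 were called with the replicate number as a block (adjusted p = 0.0055 and 0.015; 19.3% of all tested genes were).

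**Figure D2:**
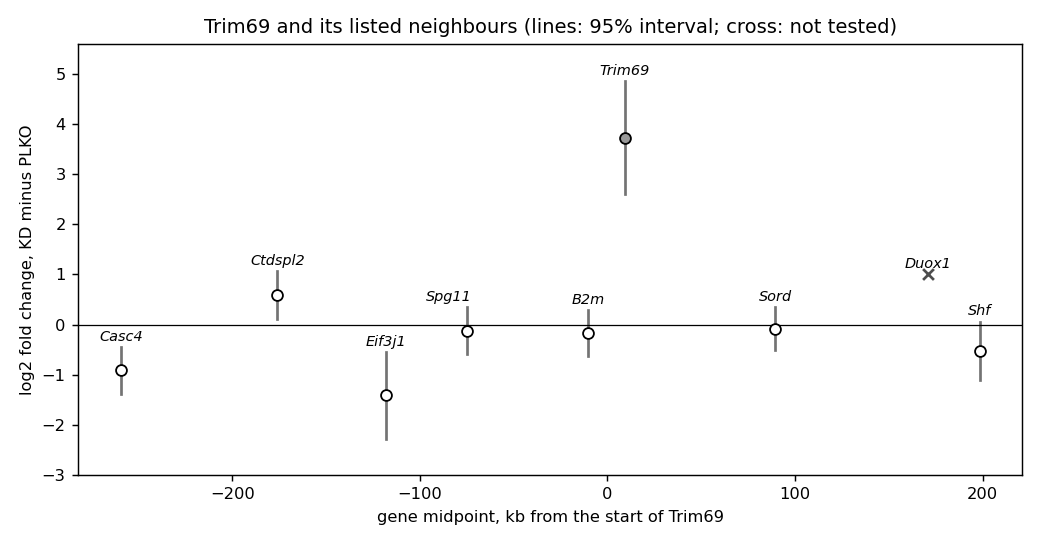
Log2 fold change, KD minus PLKO (y axis), of Trim69 (grey) and of its 8 listed neighbours within 250 kb, placed by the distance of the gene midpoint from the start of Trim69 in kb (x axis). Lines are 95% intervals and the cross is Duox1, which was not tested. B2m and Sord, on either side of Trim69, lie close to 0.

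Across the family, 4 of the 33 tested members were called over the whole table at a limma adjusted p under 0.05. KD was higher for 3 of them and lower for 1, while 2.92% of all tested genes were called (1.12% with KD higher and 1.79% with KD lower). Since Trim69 is among the 4 and was chosen for this contrast, nothing is read from that share, and without it 3 of 32 were called. The median log2 fold change of the 33 was 0.20, against -0.04 over all tested genes, and the median size without sign was 0.34, against 0.40. Estimates were above 0 for 20 of the 33 (60.6%, against 47.7% of all tested genes). Groups did not overlap for 11 of the 33 (33.3%), against 32.1% of all tested genes, so that share is close to the background. KD lay above PLKO for 8 of the 33, while it did for 13.4% of all tested genes, and below PLKO for 3 of the 33, while it did for 18.8%. Nothing is read from the median of 0.20, from the 20 or from the 8, since all of them include Trim69, chosen for this contrast. Trim69, Trim72 and Trim6 also passed the filter through KD alone. The other 22 had log2 fold changes from -0.65 to 0.78 with limma adjusted p from 0.23 to 0.99. The 4 members under a mean of 1 FPKM, Trim7, Trim71, Trim14 and Trim66, were not tested.

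**Figure D3:**
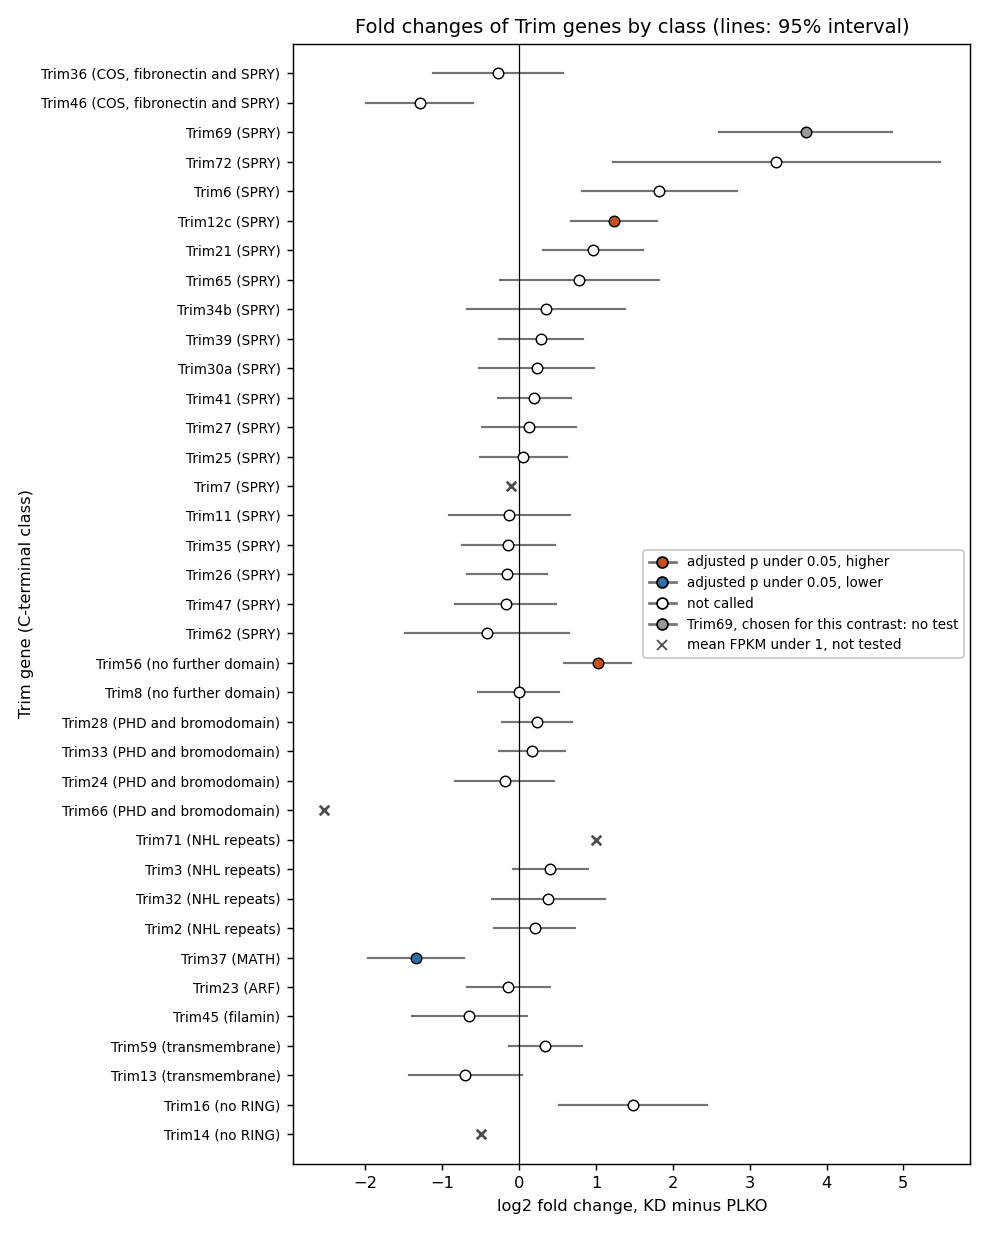
Log2 fold change, KD minus PLKO (x axis), of the 37 Trim genes grouped by class, with 95% intervals. Classes follow the C-terminal part, except that members without a RING form their own. Filled coloured circles passed the test, open circles did not, crosses mark the 4 members that were not tested and the grey circle is Trim69, whose difference is a description. Trim12c and Trim56 stand to the right of 0 and Trim37 to the left.

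Trim12c and Trim56, both tied to antiviral defence, rose in the KD cells. Trim12c is a mouse relative of primate TRIM5, the factor that stops retroviruses. It had 12.8, 13.3 and 9.66 FPKM in KD, against 4.84, 4.06 and 6.37 FPKM in PLKO, on 736, 784 and 632 reads against 326, 252 and 375. Every KD library exceeded every PLKO library, and the log2 fold change was 1.24 (SE 0.25, limma adjusted p = 0.044). Close copies such as Trim12a lie beside it, so reads can be shared. Trim56, which in human cells promotes innate signalling from cytosolic DNA and RNA, had 21.8, 22.6 and 19.3 FPKM in KD, against 9.64, 10.96 and 10.7 FPKM in PLKO. Both groups were tight, with means of 21.2 ± 1.72 FPKM in KD and 10.4 ± 0.700 FPKM in PLKO (SD, n = 3 each). The log2 fold change was 1.02 (SE 0.19, limma adjusted p = 0.038), on 9581 reads in KD and 4891 in PLKO. Trim12c lies on chromosome 7 from 104338754 to 104353362 and Trim56 on chromosome 5 from 137105644 to 137116209, both on the minus strand.

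Trim37 was the called member that fell. It encodes the MATH-class ligase that limits centriole and centrosome assembly and is mutated in the human growth disorder mulibrey nanism. It had 4.41, 4.655 and 7.16 FPKM in KD, against 14.1, 16.7 and 10.2 FPKM in PLKO. The groups did not overlap, and libraries 3 lay nearest to each other, KD 3 as the highest of its group and PLKO 3 as the lowest. Means were 5.41 ± 1.52 FPKM in KD and 13.7 ± 3.28 FPKM in PLKO (SD, n = 3 each), a log2 fold change of -1.34 (SE 0.28, limma adjusted p = 0.044). The reads were 490, 530 and 905 in KD and 1842, 2010 and 1160 in PLKO. Trim37 lies on chromosome 11 from 87127077 to 87220683 on the plus strand. Of 7 centriole genes tied to it none was called by limma or by voom on recovered reads, 3 had an unadjusted p under 0.05 and 3 were called with the block, against 27.6% and 19.3% of all tested genes. These were Stil, a centriole assembly protein, at a log2 fold change of 1.21 (limma adjusted p = 0.067, and 0.0066 with the block), Cep63 at -1.02 (0.080 and 0.024) and Cep152 at 0.96 (0.15 and 0.018). Plk4, the kinase that starts centriole copying, had a log2 fold change of 0.19 (SE 0.26).

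None of the 3 calls held when KD 1, KD 2, PLKO 1 or PLKO 2 was left out, fits in which no gene of the whole table was called (1793 to 2315 genes at an unadjusted p under 0.05). Nor did they hold in limma without the trend, with adjusted p of 0.053 for Trim56, 0.054 for Trim12c and 0.056 for Trim37. Over the 6 fits that leave out a library the log2 fold change ran from 1.09 to 1.41 for Trim12c, from 0.97 to 1.09 for Trim56 and from -1.56 to -1.18 for Trim37, with limma adjusted p of up to 0.20.

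A further 5 tested members had groups that did not overlap and missed the threshold in the test above but passed it with the replicate block, under which 9 of the 33 Trim genes were called, against 19.3% of all tested genes. With the block 7 of the 33 were higher in KD, against 8.19% of all tested genes, and 2 were lower, against 11.1%. The 7 include Trim69, Trim72 and Trim6, so nothing is read from that share. All 5 also passed with array weights, which did not converge and called 6030 of the 10770 tested genes. They passed without both libraries numbered 3 as well, where 3009 of the 10770 were called. None passed without KD 1, KD 2, PLKO 1 or PLKO 2. Trim6, whose human counterpart builds free ubiquitin chains in interferon signalling, had 3.95, 2.68 and 1.65 FPKM in KD, against 0.837, 0.501 and 0.941 FPKM in PLKO. Its log2 fold change was 1.82 (SE 0.44, limma adjusted p = 0.059, and with the block 0.011). Trim21, the cytosolic antibody receptor that sends antibody-coated viruses to the proteasome, had 5.38, 5.73 and 4.37 FPKM in KD, against 2.66, 1.95 and 3.485 FPKM in PLKO. Its log2 fold change was 0.97 (SE 0.29, adjusted p = 0.081, and 0.033 with the block).

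Trim72, known from the repair of torn muscle cell membranes, had 3.04, 2.37 and 2.04 FPKM in KD, against 0.0540, 0.242 and 1.07 FPKM in PLKO. The KD libraries held 103, 82 and 78 reads and the PLKO libraries 0, 7 and 36, so relative to its mean the control group varied more than the KD group, and the level of PLKO 1 is the authors' prior alone. Per scaled library the KD reads were 6.34 times the PLKO reads (exact 95% binomial interval 4.58 to 8.97, counting error only), and the log2 fold change was 3.35 (SE 0.94, limma adjusted p = 0.072, and 0.011 with the block). It was 2.27 without PLKO 1, 4.42 without PLKO 3 (adjusted p = 0.015) and 1.31 on the log2(FPKM + 1) scale (adjusted p = 0.045). On the opposite strand Gm15533 covers 27.6% of the exonic bases of Trim72, and since the use of strand is not given, reads from the antisense gene cannot be told apart from its own.

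Trim16, a member without a RING finger that in human cells takes part in clearing damaged lysosomes, had 13.0, 12.8 and 7.76 FPKM in KD, against 6.42, 4.73 and 1.96 FPKM in PLKO. Its library numbered 3 was the lowest in both groups, and the log2 fold change was 1.48 (SE 0.43, limma adjusted p = 0.076, and 0.0038 with the block). Trim46, a COS-class protein that bundles microtubules in axons, went the other way. It had 1.77, 2.31 and 1.76 FPKM in KD, against 4.39, 6.75 and 3.60 FPKM in PLKO, with a log2 fold change of -1.29 (SE 0.31, adjusted p = 0.058, and 0.0084 with the block). Of its exonic bases 6.3% overlap Krtcap2 on the opposite strand.

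Groups also did not overlap for Trim13, Trim2 and Trim66. Trim13, a ligase anchored in the endoplasmic reticulum membrane, had 2.07, 2.52 and 2.35 FPKM in KD, against 5.49, 3.77 and 2.56 FPKM in PLKO, and KD 2 and PLKO 3 lay almost together (log2 fold change -0.70, SE 0.32, limma adjusted p = 0.20). Trim2, a neuronal ligase with NHL repeats, had a log2 fold change of 0.20 (SE 0.23, adjusted p = 0.60), since its KD values of 3.84 to 4.02 FPKM lay just above its PLKO values of 2.99 to 3.64 FPKM. Trim66, a chromatin reader related to Trim24, had 0.0758, 0.0431 and 0.0682 FPKM in KD, against 0.306, 0.603 and 0.236 FPKM in PLKO. With 10, 5 and 10 reads in KD and 54, 100 and 36 in PLKO it was the least abundant member. Its KD reads per scaled library were 0.137 times the PLKO reads (exact 95% binomial interval 0.0861 to 0.208, counting error only), and it was not tested.

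**Figure D4:**
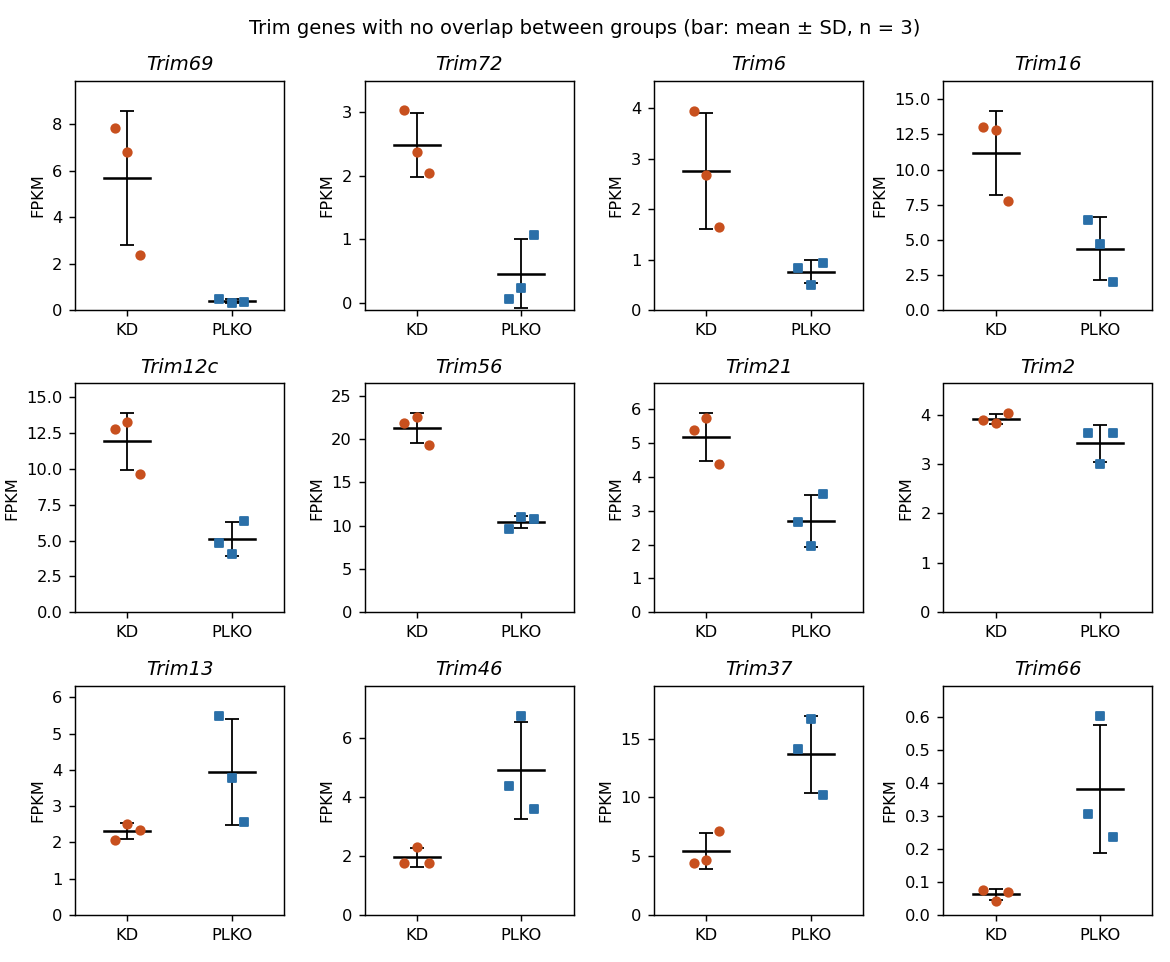
FPKM (y axis, from 0 except for Trim72, where the SD bar reaches below 0) of the 12 listed Trim genes whose KD and PLKO values do not overlap, with 1 point per library (KD left, PLKO right) and the mean ± SD of 3 libraries. Trim69, Trim72, Trim6, Trim16, Trim12c, Trim56, Trim21 and Trim2 are higher in KD, and Trim13, Trim46, Trim37 and Trim66 are lower.

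The abundant members had overlapping groups. Summed over the 37 genes the Trim level was 586, 583 and 488 FPKM in KD and 562, 495 and 447 FPKM in PLKO, with means of 552 ± 55.6 FPKM and 501 ± 57.8 FPKM (SD, n = 3 each), a difference smaller than the SD of either group. Trim28, the corepressor that zinc finger proteins bring to chromatin, made up 26.7% to 30.6% of that sum in KD and 21.8% to 30.0% in PLKO. It had 179, 162 and 130 FPKM in KD, against 122.5, 142.5 and 134 FPKM in PLKO, with a log2 fold change of 0.23 (SE 0.20, 95% interval -0.22 to 0.68). Next by mean level came Trim35 at 67.1 FPKM, Trim47 at 53.1, Trim59 at 35.4 and Trim8 at 20.7 FPKM, with log2 fold changes of -0.14, -0.17, 0.34 and -0.01. At the other end Trim34b, Trim7, Trim71, Trim14 and Trim66 averaged 1.17, 0.941, 0.917, 0.654 and 0.222 FPKM. Trim71, a stem cell regulator with NHL repeats, had 1.39, 0.913 and 1.29 FPKM in KD and 0.427, 0.481 and 0.994 FPKM in PLKO, with an overlap of KD 2 and PLKO 3. The median Trim gene stood at 5.67 FPKM, against 8.71 FPKM over all listed genes.

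Classes were exclusive: Trim46 and Trim36, which carry a SPRY part too, were counted in the COS class. Members without a RING formed a class of their own. The SPRY class so counted was the largest, with 18 listed members. Log2 fold changes of the 17 tested ran from -0.42 (Trim62) to 3.73 (Trim69). Trim69, Trim72, Trim6, Trim12c and Trim21 had all KD values above all PLKO values, as had 13.4% of all tested genes. No member counted in this class had the reverse, which 18.8% had, but Trim46 of the COS class did. Trim12c was the one call besides Trim69, where 2.92% of all tested genes were called. Nothing is read from these counts or from the range of fold changes, since Trim69 was chosen for this contrast. The first 3 of the 5 also passed the filter through KD alone. Trim25, the ligase that activates the RNA sensor RIG-I, had a log2 fold change of 0.06 (SE 0.25), and Trim30a, a mouse brake on Toll-like receptor signalling, of 0.23 (SE 0.33). Trim27, Trim41, Trim39, Trim26, Trim11, Trim65 and Trim34b also had overlapping groups. In the PHD and bromodomain class Trim24, a partner of retinoid receptors, had a log2 fold change of -0.18 (SE 0.28) and Trim33, a partner of SMAD proteins, of 0.17 (SE 0.19). The 3 tested members with NHL repeats, Trim3, Trim32 and Trim2, lay between 0.20 and 0.41, and none was called. Among the classes with a single listed member, Trim23, which carries an ARF domain, had a log2 fold change of -0.14 (SE 0.24) and Trim45, which carries a filamin domain, of -0.65 (SE 0.33).

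Part of the family sits in a cluster on chromosome 7, where 10 Trim genes lie between 104218793 and 104507849. The 4 listed ones differed among themselves: Trim6 and Trim12c had groups that did not overlap, with log2 fold changes of 1.82 and 1.24, whereas Trim34b and Trim30a had overlapping groups, with 0.35 (SE 0.45) and 0.23 (SE 0.33). Genes of this cluster include near copies, such as Trim34a beside Trim34b and Trim30b, Trim30c and Trim30d beside Trim30a, and the counting can split reads between them. Outside the cluster, Trim47 and Trim65 share 225 exonic bases on the same strand, and 31.3% of the exonic bases of Trim14 overlap Nans on the opposite strand.

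Libraries numbered 3 stood at the same end of both groups for some members, a smaller share than over all tested genes. Libraries 3 were the lowest of both groups for 6 of the 37 members (16.2%, against 24.9% of all tested genes), namely Trim47, Trim32, Trim27, Trim16, Trim11 and Trim46. They were the highest of both groups for Trim25, Trim24, Trim62 and Trim36 (10.8%, against 19.3%). Trim32, a ligase of muscle, shows the pattern with 27.2, 24.9 and 16.3 FPKM in KD 1, 2 and 3 and 19.2, 23.9 and 10.97 FPKM in PLKO 1, 2 and 3. Trim69 did not follow it, since KD 3 was the lowest of its group and PLKO 2 of the other.

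**Figure D5:**
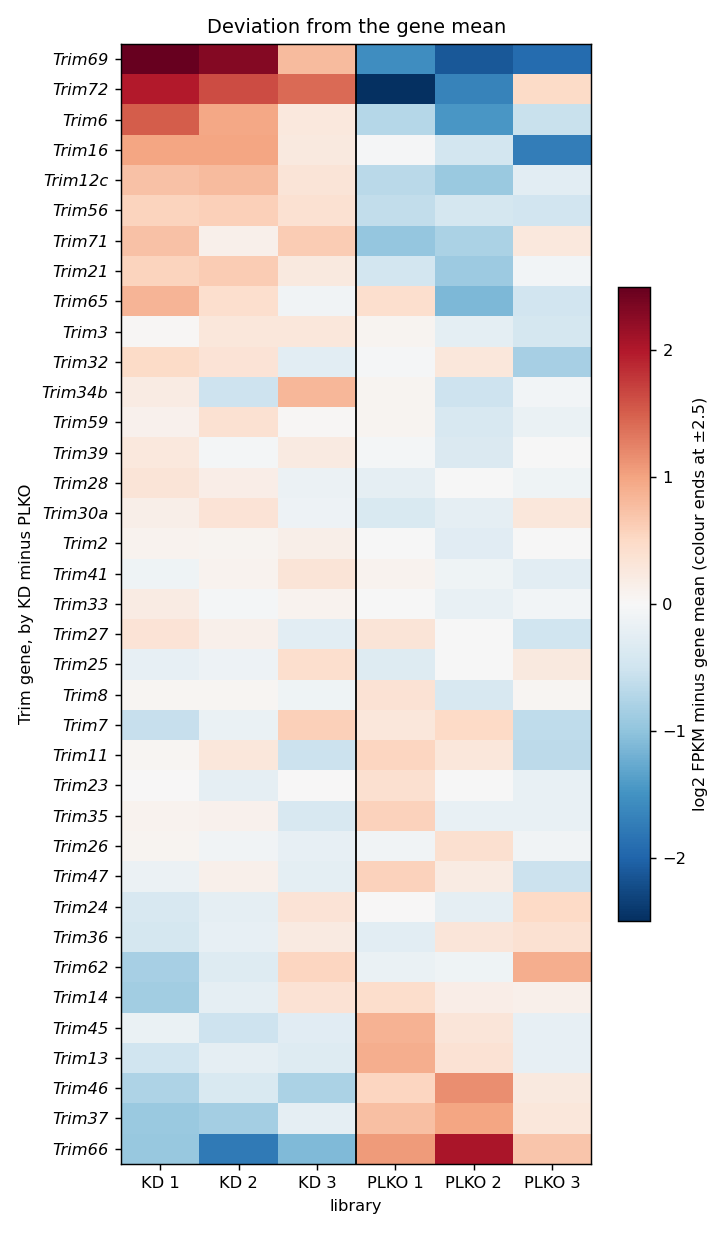
Deviation of each library from the gene mean in log2 FPKM (colour, ending at ±2.5) for the 37 Trim genes, ordered by KD minus PLKO from the highest at the top, with the 3 KD libraries left of the line and the 3 PLKO libraries right of it. Trim69 and Trim72 are strongest at the top and Trim66 at the bottom, KD 3 is paler than KD 1 and KD 2 for Trim69, and PLKO 3 of Trim72 stands on the KD side of its gene mean.

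Genes that work with TRIM proteins were looked at as lists chosen with earlier results of these data known. TRIM relatives under other symbols had 4 tested members, and Pml, the organizer of nuclear bodies, had 15.01 ± 0.692 FPKM in KD and 8.21 ± 2.11 FPKM in PLKO (SD, n = 3 each), with a log2 fold change of 0.91 (limma adjusted p = 0.067 alone and 0.018 blocked). Mid2, a microtubule-bound ligase, had 0.76 (adjusted p = 0.11, and 0.036 with the block). Neither limma nor voom on recovered reads called any of the 4, while 2 had an unadjusted p under 0.05 and 2 were called with the block. Over all tested genes, also for the 2 lists that follow, these shares were 27.6% and 19.3%. Of 11 tested E1 and E2 enzymes none was called by either fit, 1 had an unadjusted p under 0.05 and Ube2d2a, a conjugating enzyme that serves many RING ligases, was called lower with the block (-0.72, adjusted p = 0.092, and 0.043 with the block). Of 13 Trim28 partners, Setdb1 with a log2 fold change of 0.38 (SE 0.21) among them, none was called by limma, by voom or with the block, and 0 had an unadjusted p under 0.05.

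Of 16 tested interferon-stimulated genes limma called 3 lower (1.79% of all tested genes were) and 0 higher. Estimates were below 0 for 12 and above 0 for 4, while 47.7% of all tested genes were above 0. The median log2 fold change was -0.43, against -0.04 over all tested genes. An unadjusted p under 0.05 was reached by 8 of the 16 and by 27.6% of all tested genes. Isg15, the ubiquitin-like modifier, had 3.35 ± 0.682 FPKM in KD and 10.2 ± 3.14 FPKM in PLKO (SD, n = 3 each), a log2 fold change of -1.58 (SE 0.29, limma adjusted p = 0.038), but it was not called by voom (adjusted p = 0.063), which called the other 2. Usp18, which removes Isg15 from proteins, had -1.91 (SE 0.39, adjusted p = 0.044) and Ifi44 had -2.17 (SE 0.45, adjusted p = 0.045). With a library left out the limma adjusted p of each of these 3 genes reached up to 0.19. With the block 5 were called lower and 2 higher, against 11.1% and 8.19% of all tested genes, the higher ones being Ifit2 at 1.11 and Ifit3 at 1.81, members of an antiviral family (adjusted p = 0.011 and 0.013 with the block). Of 8 tested genes of RNA sensing upstream of interferon none was called by limma or voom and 4 had an unadjusted p under 0.05 (27.6% of all tested genes did). With the block 1 was called higher (Traf6 at 0.92) and 2 lower (Ddx58, which encodes RIG-I, at -0.77 and Irf7 at -1.66). No test set the Trim genes against these lists.

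Partners of single Trim genes gave 1 call by limma, where 2.92% of all tested genes were called. Mdm2, the ligase that degrades p53, rose with a log2 fold change of 0.98 (SE 0.19, limma adjusted p = 0.043) among 4 genes of the p53 axis of Trim24, while Trp53 itself had 0.56 (SE 0.24, adjusted p = 0.18). Mdm2 was called by voom too. Of the 4, 3 had an unadjusted p under 0.05 and 2 were called with the block. Over all tested genes, also for the SMAD list below, these shares were 27.6% and 19.3%. Cdkn1a, the cell cycle inhibitor p21, had a log2 fold change of 1.01 (SE 0.43, adjusted p = 0.17, and 0.012 with the block) with overlapping groups. All 6 SMAD partners of Trim33 had estimates above 0, as had 47.7% of all tested genes, with none called by limma or voom, 1 at an unadjusted p under 0.05 and Skil at 1.09 called with the block (adjusted p = 0.18, and 0.012 with the block). Germ cell genes, listed because Trim69 was found in testis, were represented by Sycp1 alone of 10, at 0.709 to 1.96 FPKM in KD and 0.454 to 1.14 FPKM in PLKO, while Ddx4, Dazl and Sycp3 were not among the listed genes.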

How the data were processed

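RNA-seq of 3 KD and 3 PLKO libraries of HCC3-4 cells was used as 1 table of 11866 genes. The values deposited by the authors are log2 FPKM, FPKM per the labels, which name the processed table, and log2 from the values themselves, which run below 0. The build GRCm38 and FastQC 0.11.7 are named per the submitters' processing notes. An aligner, a counter or a use of strand is not given in the sources used here. Low values hold a prior of 2 reads on average, which understates the fold changes of genes with few reads. Whole reads were recovered from the steps of the values for 100% of the genes (tolerance 0.01 reads), with the exonic length in GENCODE M21 for 10962 genes and a scanned length for 904. Reads per library ran from 15140441 to 17566101, and they give depth and counting intervals and enter an alternative.

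Tests used limma 3.58.1 in R 4.3.3 with its trend option, fitted to the log2 FPKM as deposited for 10770 genes whose mean FPKM reached 1, with group as the only term. Benjamini-Hochberg adjusted p-values over all tested genes under 0.05 were called. Printed FPKM were computed as 2 raised to the deposited value, and log2 fold changes are KD minus PLKO. Intervals on reads are exact binomial and cover counting error only.

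The members, the gene lists and the rule for named genes (Trim69, called Trim genes, Trim genes whose groups do not overlap, the 5 most and the 5 least abundant ones, Sf3b3, listed genes within 250 kb of Trim69, and up to 3 genes a list) were chosen with earlier results of these data known. Classes are textbook knowledge. Deviations from the group means correlated at 0.18, 0.29 and 0.50 between libraries numbered 1, 2 and 3, all above the limit of 0.1. Equal numbers were therefore treated as pairs in the alternative with the block, while the main test did not pair libraries. No label states such a pairing. KD 1 with PLKO 2 reached 0.30 and KD 2 with PLKO 1 reached 0.27, both above the 0.18 of libraries numbered 1. These values thus do not set the pairing of libraries 1 and 2, and p-values with the block rest on it. Values with the replicate block stand beside results whose call they change. Alternatives were the log2(FPKM + 1) scale, other filters, quantile normalization, median centring, no trend, array weights, the block, leaving out libraries, and voom on recovered reads. The fit was tested on simulated data, where it missed most of the smaller changes put in and recovered most of the larger ones. A gene that was not called may thus still differ.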

Additional observations from a re-analysis of the deposited data

How the results depend on the processing

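The direction of Trim69 and of the other 10 tested Trim genes whose groups do not overlap was the same under all alternatives run. There were 16 of these for each gene, or 15 where the filter at a mean of 5 FPKM removes it. Groups that do not overlap keep their direction under most of these alternatives by construction, so nothing is read from the agreement. The log2 fold change of Trim69 was 2.16 on the log2(FPKM + 1) scale, against 3.73, and 3.41 to 4.27 with a library left out. The median of the tested members stayed within 0.03 to 0.25 over all alternatives and within 0.15 to 0.21 with a library left out.

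Counts of calls depend on the libraries and on the spread model. Among all tested genes 314 were called, against 151 without the trend, 2080 with the replicate block, 3009 without both libraries numbered 3 and 6030 with array weights. For Trim genes the count of 4 became 1 (Trim69, the gene chosen for the contrast), 9, 11 and 16 in the same order. The array weights did not converge and gave KD 2 a weight of 44.7 against 0.214 to 1.94 for the others. With a library left out the counts ran from 0 to 1744 genes and from 0 to 8 Trim genes: 0 without KD 1, KD 2, PLKO 1 or PLKO 2 (9 or 10 Trim genes at an unadjusted p under 0.05), 1744 and 7 without KD 3, and 801 and 8 without PLKO 3. The cause was not tested. The block, which assumes that equal numbers pair the libraries, called all 4 and added Trim6, Trim72, Trim16, Trim21 and Trim46, and it changed no other call of a Trim gene. Few reads limit Trim69 and Trim72 in PLKO and Trim66 in KD.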
